A study of Mus musculus with 8 samples.

Results

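The 37 genes described here encode the enzymes that make sterols and fatty acids, the proteins that control them, and the receptors and transporters that dispose of sterol. They were chosen by symbol from the 54188 genes of the deposited count table. Each symbol matched 1 row, and all 37 were among the 17650 genes that passed the filter on low counts. They comprise 8 genes of the mevalonate pathway, 11 genes from squalene to cholesterol, 5 genes of SREBP control, 6 genes of fatty acid synthesis, and 7 genes of the LXR response, sterol transport and sterol storage. RNA came from CD11b+Gr-1hi and CD11b+Gr-1lo cells of the spleen (SP) and bone marrow (BM), sorted from sanroque mice, which carry the Roquin san mutation on both alleles and develop a disease like lupus. The 4 groups are SP Gr-1hi (libraries 5 and 6), SP Gr-1lo (7 and 8), BM Gr-1hi (9 and 10) and BM Gr-1lo (11 and 12), all from mice labelled female, of about 20 weeks, on a C57BL/6 background. The labels name the Gr-1hi sort G-MDSC and the Gr-1lo sort M-MDSC. Every group carries the mutation, so the comparisons are between tissues and subsets of sanroque mice, not between mutant and wild type. The study calls the marrow cells autologous, that is, from the mice that gave the spleens. No label ties a library to a mouse, so p-values measure the spread between libraries said to be independent replicates.

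Cells build cholesterol from acetyl-CoA through mevalonate, isoprenoids, squalene and lanosterol. When sterol in the ER membrane is low, SCAP carries SREBP proteins to the Golgi, where they are cleaved and released to switch on these enzymes, and INSIG proteins hold the complex back when sterol is plentiful. SREBP2 acts mainly on sterol genes and SREBP1 mainly on fatty acid genes, while LXR receptors sense oxysterols and switch on efflux pumps, desaturases and the lipogenic genes. In myeloid cells these programs change with growth, differentiation and activation.

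Some libraries went against their labels or stood apart, and this was checked first. All libraries are labelled female. Xist, the RNA of the inactive X chromosome, reached 12032 counts in library 5 and 9898 in library 7, while no other library had more than 5. Ddx3y, a gene of the Y chromosome, had 0 counts in library 5 and 33.7 to 82.6 CPM in the other 7 libraries, library 7 included. Neither splenic library with Xist thus had a marrow library with the same pattern, and results without libraries 5 and 7 are given below for each comparison. Ly6g, which encodes the antigen Ly6G that antibodies to Gr-1 bind, had 330.0 to 801 CPM in Gr-1hi and 3.07 to 8.23 CPM in Gr-1lo libraries. Itgam, which encodes CD11b, had 2739 to 4904 and 734 to 983 CPM in the same order. Library totals were 33453580 to 68316154 counts. The model used below took the spread of a gene to be the same in all groups. Between the 2 libraries of a group, chi-square per degree of freedom over the whole table was 66.7 in SP Gr-1hi. It was 21 in SP Gr-1lo, 21.3 in BM Gr-1hi and 18.9 in BM Gr-1lo. For the genes described here, the median fold between those libraries was 1.15, 1.05, 1.285 and 1.12 in the same order. A p-value for SP Gr-1hi may thus understate the spread of genes that varied more there. Where a gene had 0 counts, its level could be as high as 3 counts, which is 0.0348 to 0.124 CPM, a limit that covers counting error only.

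Summed over 9 B cell markers led by Cd22 and Cd79a, the level was 476 and 316 CPM in SP Gr-1hi, 59 and 73.5 in SP Gr-1lo, 16.6 and 12.3 in BM Gr-1hi, and 7.4 and 8.97 in BM Gr-1lo. All 9 had counts in the SP Gr-1hi libraries, and Cr2 was at 0 in library 11. The 7 tested of 8 erythroid markers led by Hba-a1, Hba-a2 and Hbb-bs gave 167 to 734 CPM in SP and 7.70 to 44.1 CPM in BM libraries. Over 12 markers of splenic macrophages led by Slc40a1, Hmox1 and Adgre1, it was 1172 and 988 CPM in SP Gr-1hi, 324 and 363 in SP Gr-1lo, 695 and 623 in BM Gr-1hi, and 277 and 233 in BM Gr-1lo. Most of the sum in SP Gr-1hi was Slc40a1, with 825 and 676 CPM there and 31.6 and 28.9 in SP Gr-1lo. Adgre1 went the other way, with 61.5 and 40.2 CPM in SP Gr-1hi and 125 and 150 in SP Gr-1lo. In BM, 7 of the 12 markers were called higher in Gr-1hi than in Gr-1lo and 2 lower. The sum of 8 genes of mature neutrophils led by S100a9, S100a8 and Mmp9 was 67066 and 79117 CPM in SP Gr-1hi, 6806 and 5654 in SP Gr-1lo, 107252 and 112965 in BM Gr-1hi, and 3265 and 3411 in BM Gr-1lo. The sum of 16 cell cycle genes led by Mki67, Top2a and Rrm2 was 415 and 509 CPM in SP Gr-1hi, 2608 and 2548 in SP Gr-1lo, 446 and 677 in BM Gr-1hi, and 3114 and 3509 in BM Gr-1lo. Thus B cell markers were at their highest in SP Gr-1hi, and cell cycle genes separated Gr-1lo from Gr-1hi libraries but overlapped between SP and BM Gr-1hi. In sorted bulk cells, fewer cells of a type and less RNA per cell cannot be told apart.

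The promoters of 5 of the genes are shown because they stand for the opposite directions described below: Hmgcs1, Mvk and Nsdhl were lower in SP than in BM Gr-1hi cells, and Fasn and Abca1 were higher. RefSeq promoter windows of GRCm38.p6, 250 bases before to 50 bases after a start, were at hand for 30 of the 37 genes. The 250 bases before the start are printed 5′ to 3′ on the coding strand, with capitals for the sterol regulatory element TCACNCCAC, which SREBP proteins bind, and for the CCAAT box, which NF-Y binds, on either strand (ATTGG is the box read on the other strand). The windows are chr13:119690101-119690350, plus strand for Hmgcs1, chr5:114444019-114444268, plus strand for Mvk, chrX:72918271-72918520, plus strand for Nsdhl, chr11:120824548-120824797, minus strand for Fasn and chr4:53159896-53160145, minus strand for Abca1.
Hmgcs1: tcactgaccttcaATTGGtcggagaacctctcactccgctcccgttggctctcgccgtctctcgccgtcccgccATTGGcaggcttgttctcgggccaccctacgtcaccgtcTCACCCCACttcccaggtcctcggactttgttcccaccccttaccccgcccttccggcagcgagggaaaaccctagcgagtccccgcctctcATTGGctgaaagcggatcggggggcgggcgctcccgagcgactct
Mvk: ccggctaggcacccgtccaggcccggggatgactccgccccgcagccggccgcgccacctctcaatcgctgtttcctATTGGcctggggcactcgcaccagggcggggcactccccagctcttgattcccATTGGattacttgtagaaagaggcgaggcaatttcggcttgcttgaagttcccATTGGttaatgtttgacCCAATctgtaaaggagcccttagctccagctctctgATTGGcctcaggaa
Nsdhl: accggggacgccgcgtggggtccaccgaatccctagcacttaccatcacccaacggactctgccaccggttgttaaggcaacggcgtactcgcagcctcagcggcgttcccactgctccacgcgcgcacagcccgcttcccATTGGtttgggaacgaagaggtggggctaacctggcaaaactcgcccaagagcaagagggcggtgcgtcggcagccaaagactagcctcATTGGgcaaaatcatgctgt
Fasn: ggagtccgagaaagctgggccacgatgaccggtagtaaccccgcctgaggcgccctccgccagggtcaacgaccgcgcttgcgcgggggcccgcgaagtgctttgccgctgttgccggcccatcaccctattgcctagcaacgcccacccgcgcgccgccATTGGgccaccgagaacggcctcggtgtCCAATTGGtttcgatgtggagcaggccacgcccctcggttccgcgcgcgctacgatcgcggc
Abca1: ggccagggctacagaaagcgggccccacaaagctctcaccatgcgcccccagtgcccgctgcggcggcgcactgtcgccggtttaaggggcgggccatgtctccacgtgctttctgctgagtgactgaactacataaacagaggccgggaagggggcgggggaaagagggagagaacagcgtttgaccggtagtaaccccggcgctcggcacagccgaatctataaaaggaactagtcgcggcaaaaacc

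Hmgcs1 held the sterol regulatory element at position -137 counted from the start and was the only 1 of the 30 genes with a match to these letters, which 1.44% of 27025 genes in the table had. It overlapped none of the 4 CCAAT boxes of that window, of which 1 lies after the start and is not in the printed stretch. A CCAAT box lay in the window of 23 of the 30 genes (76.7%), against 41.1% of all genes in the table. All 9 genes with a window that were lower in SP Gr-1hi held a box, namely Hmgcs1, Mvk, Idi1, Lss, Cyp51, Msmo1, Nsdhl, Hsd17b7 and Srebf2. Of the 3 that were higher, Fasn held a box, and Abca1 and Nr1h3 held none. Of the 18 that were not called, 13 held one. No member window held an exact match to an LXR element of the DR4 type, written here as 2 copies of AGGTCA with 4 bases between them. Of all genes, 0.0148% had such a match. Only exact copies were sought, so an element with other letters would be missed. The search thus cannot say whether a window lacks an LXR element. A match is a string of letters in a window and not a measured site.

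Across the 4 groups, the mean CPM was highest in BM Gr-1hi for 17 of the 37 genes, in BM Gr-1lo for 13, in SP Gr-1hi for 7 and in SP Gr-1lo for 0. Of the 19 enzymes from acetoacetyl-CoA to cholesterol, 11 were highest in BM Gr-1hi and 6 in BM Gr-1lo. The summed level of these 19 enzymes was 406 and 381 CPM in SP Gr-1hi, 338 and 318 in SP Gr-1lo, 635 and 841 in BM Gr-1hi, and 397 and 433 in BM Gr-1lo. Per length, as TPM, the order differed. BM Gr-1lo had the highest mean TPM for 21 of the 37 genes, BM Gr-1hi for 9, SP Gr-1hi for 5 and SP Gr-1lo for 2. Of the 19 enzymes, BM Gr-1lo had the highest mean TPM for 11 and BM Gr-1hi for 6. TPM carry no TMM factor, and these factors were 0.724 to 0.863 in Gr-1hi and 1.26 to 1.30 in Gr-1lo libraries. On the CPM scale both BM Gr-1hi libraries lay above the other 6, and the 2 SP Gr-1hi libraries lay between 381 and 406 CPM. Scd1 varied the most over the 8 libraries, with a highest level 89.4 times its lowest, and Soat1 the least, with 1.14 times.

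**Figure D1:**
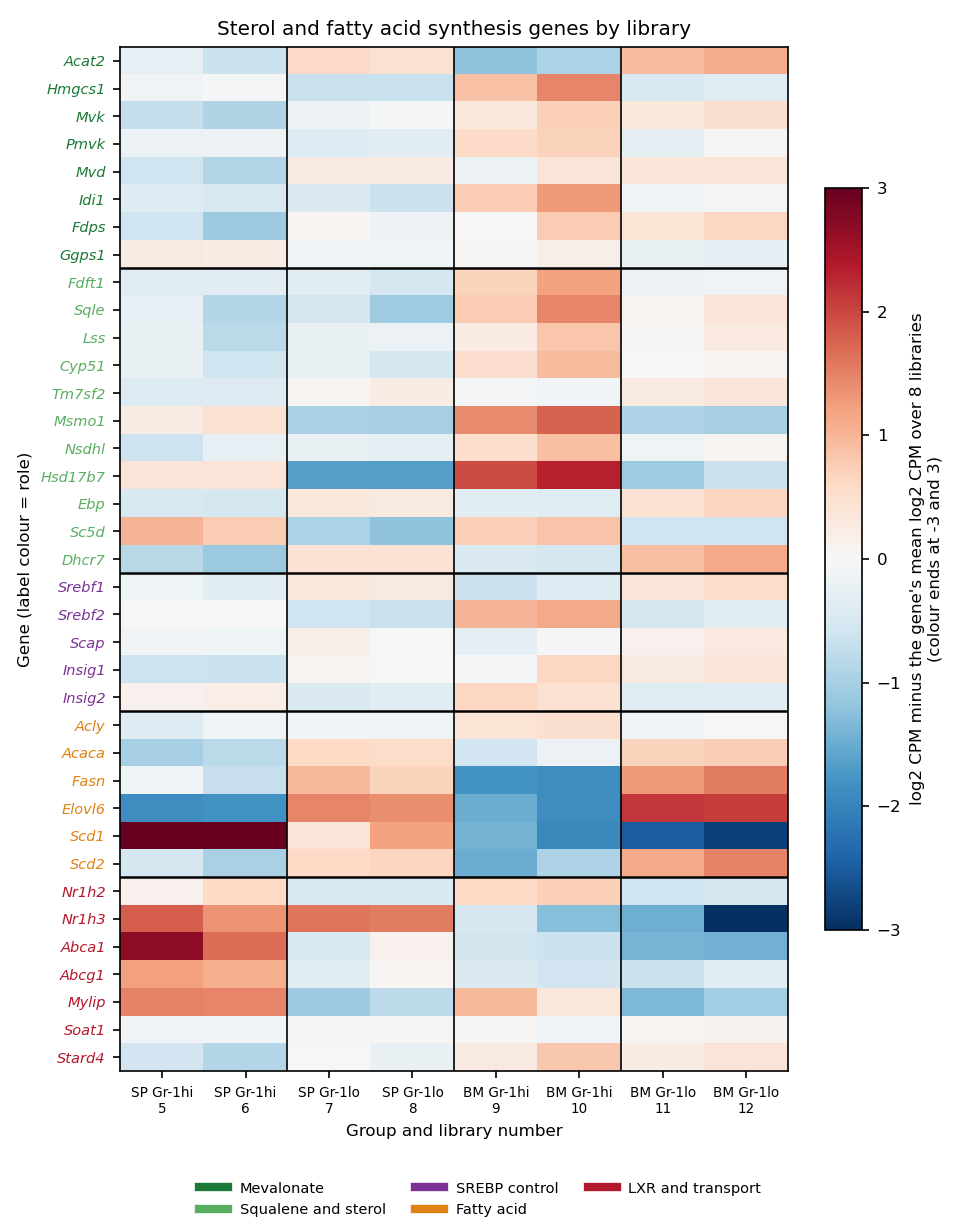
Level of each of the 37 genes in each of the 8 libraries, as log2 CPM minus the gene's mean over the libraries, with genes grouped by role and the colour scale ending at -3 and 3. The mevalonate and sterol enzymes with the widest range, such as Msmo1 and Hsd17b7, are reddest in the BM Gr-1hi libraries 9 and 10, and Scd1 and Abca1 are reddest in the SP Gr-1hi libraries 5 and 6.

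The first comparison asked how Gr-1hi cells of the spleen differ from those of the marrow. In SP Gr-1hi cells, 11 of the 19 enzymes of the mevalonate and sterol pathway were lower, along with Srebf2 and the sterol carrier gene Stard4. By contrast, Scd1, Fasn, Nr1h3, Abca1 and Abcg1 were higher. Calls came from the quasi-likelihood test of edgeR, with p-values adjusted by Benjamini-Hochberg over all 17650 genes, and needed both an adjusted p within 0.05 and an FC no smaller than 2. By that rule 13 of the 37 genes (35.1%) were lower, where 1.48% of all genes tested were lower. The higher genes numbered 5 (13.5%), near the share of all genes, which was 14%. By the adjusted p alone 20 were lower (54.1%) and 7 higher (18.9%), where 13.9% and 20.1% of all genes were. None of the 19 enzymes was called higher, and 16 had a log2 FC below 0, where 48% of all genes did. Their median log2 FC was -1.14, against 0.03 over all genes tested. Both SP libraries lay below both BM libraries for 16 of the 19 enzymes, which held for 31.9% of all genes. With libraries 5 and 7 left out, 11 genes were lower and 5 higher. On quantile-normalized TPM, the same edgeR test called 6 lower and 3 higher.

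In the mevalonate pathway, 4 of 8 genes were lower in SP Gr-1hi cells. In the values that follow, each pair is in the order of the library numbers (5 and 6, 7 and 8, 9 and 10, 11 and 12), CPM are counts scaled to library size with TMM factors, and the error of a log2 FC is its SE. Hmgcs1 (ENSMUSG00000093930, chromosome 13 from 119690379 to 119708260), which makes HMG-CoA, had 44 and 45.4 CPM in SP Gr-1hi, 29.7 and 29.5 in SP Gr-1lo, 87.1 and 130.0 in BM Gr-1hi, and 34 and 36.8 in BM Gr-1lo. Its BM Gr-1hi libraries stood clear of all others. Its log2 FC between SP and BM Gr-1hi was -1.28 ± 0.17 (adjusted p = 0.00114). Mvk (ENSMUSG00000041939, chromosome 5 from 114444269 to 114460591), the kinase of mevalonate, had 4.97 and 4.37 CPM in SP Gr-1hi, 7.37 and 7.82 in SP Gr-1lo, 10.3 and 13.4 in BM Gr-1hi, and 10.2 and 11.5 in BM Gr-1lo. The SP Gr-1hi libraries were the lowest of all 8, and the log2 FC was -1.34 ± 0.17 (adjusted p = 0.00103). Idi1 (ENSMUSG00000058258, chromosome 13 from 8885501 to 8892451), which interconverts the isoprenoid units IPP and DMAPP, had 23.7 and 22.2 CPM in SP Gr-1hi, 22.9 and 19.8 in SP Gr-1lo, 52.4 and 74.3 in BM Gr-1hi, and 28.7 and 30.2 in BM Gr-1lo. In BM Gr-1hi it was the highest of the groups, with no overlap, and the log2 FC was -1.47 ± 0.16 (adjusted p = 0.000524). Fdps, which makes farnesyl diphosphate, had 26.4 and 18.8 CPM in SP Gr-1hi, 41.7 and 36.2 in SP Gr-1lo, 39.9 and 68.6 in BM Gr-1hi, and 53.7 and 62.2 in BM Gr-1lo. The SP Gr-1hi libraries lay below the other 6, and the log2 FC was -1.26 ± 0.26 (adjusted p = 0.00883). Of 101-base windows in the transcripts of Idi1 and Fdps, 15.8% and 21.3% also occur in transcripts of other genes. A read from those windows cannot be tied to 1 gene without its mate.

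Of the other 4 genes of this pathway, Pmvk and Mvd, the next kinase and the decarboxylase, had log2 FCs of -0.79 ± 0.13 (adjusted p = 0.00278) and -0.86 ± 0.18 (adjusted p = 0.00879), short of an FC of 2. Ggps1, which makes the longer isoprenoid used to anchor small GTPases, had a log2 FC of 0.13 ± 0.10 (adjusted p = 0.318), with a 95% interval of -0.09 to 0.35. Acat2, the acetoacetyl-CoA thiolase at the head of the pathway, had 5.42 and 4.08 CPM in SP Gr-1hi, 9.5 and 8.83 in SP Gr-1lo, 2.77 and 3.34 in BM Gr-1hi, and 12.2 and 13.8 in BM Gr-1lo. It went the other way from Hmgcs1, with the SP Gr-1hi libraries above the BM Gr-1hi libraries and a log2 FC of 0.64 ± 0.20 (adjusted p = 0.0355). Of its 101-base windows, 28.7% are shared with Acat3, so its counts are less certain.

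From squalene to cholesterol, 7 of 11 genes were lower in SP Gr-1hi cells and none was higher. Fdft1, which joins farnesyl units into squalene, had 17.2 and 17.4 CPM in SP Gr-1hi, 17.3 and 15.5 in SP Gr-1lo, 35.3 and 51 in BM Gr-1hi, and 19.7 and 20.0 in BM Gr-1lo. The BM Gr-1hi libraries lay above the rest, with a log2 FC of -1.32 ± 0.17 (adjusted p = 0.000907). Sqle (ENSMUSG00000022351, chromosome 15 from 59315077 to 59331192), the squalene epoxidase that is a rate-limiting step, had 10.5 and 6.7 CPM in SP Gr-1hi, 8.7 and 5.89 in SP Gr-1lo, 20.9 and 34.1 in BM Gr-1hi, and 13.1 and 16.3 in BM Gr-1lo. Its libraries differed within groups, yet both SP groups lay below both BM groups, and the log2 FC between the Gr-1hi groups was -1.68 ± 0.31 (adjusted p = 0.00569). Lss, which closes the rings to give lanosterol, had 5.79 and 3.86 CPM in SP Gr-1hi, 5.76 and 6.0 in SP Gr-1lo, 8.0 and 12 in BM Gr-1hi, and 6.84 and 8.29 in BM Gr-1lo. Its log2 FC was -1.05 ± 0.25 (adjusted p = 0.0142). Cyp51, the demethylase of lanosterol, had 15.9 and 12.3 CPM in SP Gr-1hi, 16 and 12.9 in SP Gr-1lo, 26.4 and 36 in BM Gr-1hi, and 18.9 and 19.6 in BM Gr-1lo. Its SP Gr-1hi and SP Gr-1lo libraries overlapped, and the log2 FC between the Gr-1hi groups was -1.14 ± 0.19 (adjusted p = 0.00312).

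Msmo1 and Nsdhl, which with Hsd17b7 remove the methyl groups at carbon 4 of the sterol ring, were also lower. Msmo1 had 51.9 and 60.2 CPM in SP Gr-1hi, 22.4 and 22.1 in SP Gr-1lo, 117 and 149 in BM Gr-1hi, and 23 and 22 in BM Gr-1lo. It was high in both Gr-1hi groups and highest in BM, with a log2 FC of -1.25 ± 0.13 (adjusted p = 0.000405). Nsdhl had 8.92 and 11.7 CPM in SP Gr-1hi, 11.7 and 11.2 in SP Gr-1lo, 19.9 and 25.5 in BM Gr-1hi, and 12.6 and 14.5 in BM Gr-1lo. The BM Gr-1hi libraries lay above all others, the BM Gr-1lo libraries lay above all 4 SP libraries, and the log2 FC between the Gr-1hi groups was -1.14 ± 0.18 (adjusted p = 0.00226). Hsd17b7 (ENSMUSG00000026675, chromosome 1 from 169949535 to 169969241), the ketosteroid reductase of the same complex, had 12.4 and 12.5 CPM in SP Gr-1hi, 3.06 and 3.02 in SP Gr-1lo, 36.9 and 48.1 in BM Gr-1hi, and 4.55 and 6.08 in BM Gr-1lo. It was 3.41 times lower in SP than in BM Gr-1hi, the largest decrease among the 37 genes, with a log2 FC of -1.77 ± 0.17 (adjusted p = 0.000321). The other 4 enzymes were not called. The log2 FC was -0.33 for Tm7sf2 (adjusted p = 0.0579), -0.15 for Ebp (adjusted p = 0.257), 0.12 for Sc5d (adjusted p = 0.48) and -0.50 for Dhcr7 (adjusted p = 0.047), by edgeR's quasi-likelihood test.

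Among the genes of SREBP control, Srebf2 was called lower and no other gene was called. Srebf2 (ENSMUSG00000022463, chromosome 15 from 82147181 to 82205379), which encodes SREBP2, had 165 and 169 CPM in SP Gr-1hi, 110.5 and 105 in SP Gr-1lo, 337 and 365 in BM Gr-1hi, and 116 and 131 in BM Gr-1lo. The 2 BM Gr-1hi libraries lay far above the others, and the log2 FC between SP and BM Gr-1hi was -1.07 ± 0.09 (adjusted p = 0.000209). Srebf1, which encodes SREBP1, had 52.4 and 45.5 CPM in SP Gr-1hi, 71.2 and 69 in SP Gr-1lo, 36.8 and 43.6 in BM Gr-1hi, and 74 and 84.2 in BM Gr-1lo. It followed the subset more than the tissue, higher in Gr-1lo than in Gr-1hi, and its log2 FC between the Gr-1hi groups was 0.28 ± 0.12 (adjusted p = 0.101). Scap, the escort of SREBP proteins, had 29.3 and 28.5 CPM in SP Gr-1hi, 35.3 and 31.6 in SP Gr-1lo, 25.5 and 30.1 in BM Gr-1hi, and 34 and 38.2 in BM Gr-1lo, with a log2 FC of 0.05 ± 0.12 (adjusted p = 0.748) and a 95% interval of -0.21 to 0.32. Insig1, a retention protein that SREBPs themselves induce, had 20.7 and 20.3 CPM in SP Gr-1hi, 33.9 and 31.7 in SP Gr-1lo, 30.7 and 49.4 in BM Gr-1hi, and 38.4 and 40.8 in BM Gr-1lo. Its SP Gr-1hi libraries were the lowest, and the log2 FC of -0.96 ± 0.19 (adjusted p = 0.0070) fell just short of an FC of 2. Insig2, the second retention protein, had 13.4 and 14.2 CPM in SP Gr-1hi, 9.14 and 9.93 in SP Gr-1lo, 18.9 and 16.9 in BM Gr-1hi, and 9.51 and 9.92 in BM Gr-1lo and a log2 FC of -0.38 ± 0.12 (adjusted p = 0.0384). Stard4, which carries sterol between membranes, had 14.8 and 11.9 CPM in SP Gr-1hi, 21.7 and 18.9 in SP Gr-1lo, 26.7 and 38.4 in BM Gr-1hi, and 25.5 and 28.8 in BM Gr-1lo, and its log2 FC was -1.28 ± 0.19 (adjusted p = 0.00193).

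The 5 genes higher in SP Gr-1hi cells belong to desaturation, fatty acid synthesis and the LXR response. Their share of the 37 genes was near the share of all genes called higher. Scd1 (ENSMUSG00000037071, chromosome 19 from 44394455 to 44407879), the stearoyl-CoA desaturase that puts the double bond into oleate, had 49 and 38.5 CPM in SP Gr-1hi, 4.96 and 8.74 in SP Gr-1lo, 1.42 and 0.991 in BM Gr-1hi, and 0.676 and 0.548 in BM Gr-1lo. Its libraries separated by tissue without overlap, and it was 36 times higher in SP than in BM Gr-1hi, a log2 FC of 5.17 ± 0.33 (adjusted p = 9.55e-05). Abca1 (ENSMUSG00000015243, chromosome 4 from 53030787 to 53159895), the pump that loads cholesterol onto apolipoprotein A-I, had 53.2 and 26.4 CPM in SP Gr-1hi, 5.97 and 8.98 in SP Gr-1lo, 5.64 and 5.24 in BM Gr-1hi, and 3.13 and 3.06 in BM Gr-1lo. Library 5 stood above library 6, and both lay above the rest, with a log2 FC of 2.87 ± 0.34 (adjusted p = 0.000919). Abcg1, which exports sterol to HDL, had 132 and 118 CPM in SP Gr-1hi, 44.9 and 58.5 in SP Gr-1lo, 41.5 and 37.8 in BM Gr-1hi, and 35.6 and 44.6 in BM Gr-1lo. The SP Gr-1hi libraries stood clear of the other 6, and the log2 FC was 1.66 ± 0.16 (adjusted p = 0.000306). Nr1h3 (ENSMUSG00000002108, chromosome 2 from 91184061 to 91202834), which encodes LXR alpha, had 5.64 and 4.02 CPM in SP Gr-1hi, 4.83 and 4.65 in SP Gr-1lo, 1.12 and 0.661 in BM Gr-1hi, and 0.574 and 0.189 in BM Gr-1lo. All 4 SP libraries lay above all 4 BM libraries, with a log2 FC between the Gr-1hi groups of 2.42 ± 0.43 (adjusted p = 0.0041). Fasn (ENSMUSG00000025153, chromosome 11 from 120805846 to 120824547), the fatty acid synthase, had 18.4 and 12.3 CPM in SP Gr-1hi, 39.1 and 31.8 in SP Gr-1lo, 5.76 and 5.53 in BM Gr-1hi, and 48.2 and 59.2 in BM Gr-1lo. BM Gr-1hi was the lowest group, SP Gr-1hi came next, and the log2 FC between them was 1.44 ± 0.22 (adjusted p = 0.00215).

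No other gene of these groups was called higher in this comparison. Acly, which supplies cytosolic acetyl-CoA, had a log2 FC of -0.70 ± 0.11 (adjusted p = 0.00225) between SP and BM Gr-1hi. For Acaca, the acetyl-CoA carboxylase, it was -0.55 ± 0.14 (adjusted p = 0.0167). Elovl6, which lengthens palmitate, and Scd2, the desaturase next to Scd1 on chromosome 19, had log2 FCs of -0.19 ± 0.19 (adjusted p = 0.524) and 0.46 ± 0.22 (adjusted p = 0.136). Of the 101-base windows of Scd1, 2.54% also occur in Scd2, Scd3, Scd4 or 1 further gene. Nr1h2, which encodes LXR beta, had a log2 FC of -0.29 ± 0.14 (adjusted p = 0.15). Mylip, an LXR target whose product degrades lipoprotein receptors, rose by less than an FC of 2, with a log2 FC of 0.78 ± 0.20 (adjusted p = 0.0196). Soat1, which esterifies cholesterol for storage, had 206 and 203 CPM in SP Gr-1hi, 221 and 221 in SP Gr-1lo, 223 and 202 in BM Gr-1hi, and 224 and 231 in BM Gr-1lo, and its log2 FC was -0.06 with a 95% interval of -0.24 to 0.13.

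**Figure D2:**
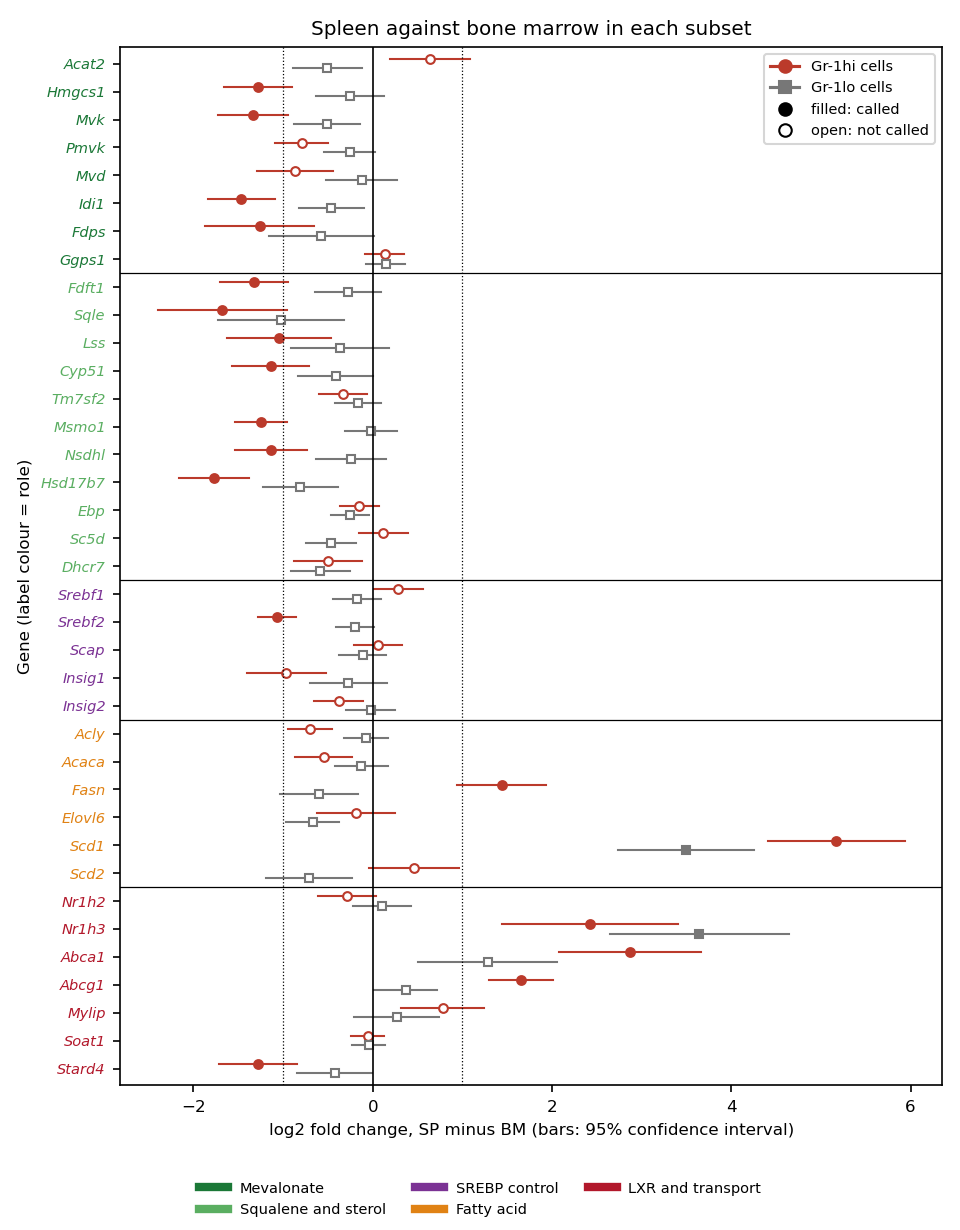
Log2 FC between SP and BM of each of the 37 genes with its 95% confidence interval, in Gr-1hi cells (circles) and Gr-1lo cells (squares), where filled points were called and dotted lines mark an FC of 2 in either direction. In Gr-1hi cells 13 filled points lie left of the dotted line at -1 and 5 right of the line at 1, whereas in Gr-1lo cells only Scd1 and Nr1h3 are filled.

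The B cell sum moved with Scd1 across the libraries and not with Fasn. The level of Scd1 divided by the summed level of the 9 B cell markers lay between 0.0611 and 0.122 in all 8 libraries, a range of 2.0 times, while Scd1 ranged over 89.4 times and the B cell sum over 64.3 times. The same ratio ranged over 5.11 times for Abca1, 6.92 times for Nr1h3, 17.9 times for Abcg1 and 171 times for Fasn. For Abcg1 and Fasn these ranges are wider than those of the genes themselves, 3.71 and 10.7 times. The ratio of Scd1 to the T cell sum ranged over 4.39 times, and that of Abca1 to the dendritic cell sum over 3.69 times. Among the marker lists, the ratio to the B cell sum had the narrowest range for Scd1 only. The narrowest was to the T cell sum for Nr1h3, at 4.68 times, and to the dendritic cell sum for Abca1. For Abcg1 it was to the plasma cell sum, at 3.01 times, and for Fasn to the cell cycle sum, at 5.41 times. The 8 T cell markers led by Lck, Thy1 and Cd4 summed to 103 and 61.3 CPM in SP Gr-1hi, 20.8 and 29.9 in SP Gr-1lo, 9.94 and 6.36 in BM Gr-1hi, and 2.23 and 2.17 in BM Gr-1lo, and the 8 dendritic cell markers led by Itgax, Dnase1l3 and Flt3 to 118 and 114 CPM in SP Gr-1hi, 28 and 44.6 in SP Gr-1lo, 40.9 and 27.5 in BM Gr-1hi, and 9.2 and 6.01 in BM Gr-1lo. Zbtb46, Xcr1 and Ccr7, dendritic cell genes, were each at 0 in 1 or 2 BM libraries. The 7 genes tested of 8 tied to plasma cells, led by Xbp1, Jchain and Irf4, summed to 392 and 288 CPM in SP Gr-1hi, 331 and 320.3 in SP Gr-1lo, 102 and 101 in BM Gr-1hi, and 256 and 231 in BM Gr-1lo. Most of this sum was Xbp1, with 247 and 204 CPM in SP Gr-1hi and 241 and 215 in BM Gr-1lo. Jchain had 101 and 52.2 CPM in SP Gr-1hi, 29.1 and 41 in SP Gr-1lo, 8.0 and 6.36 in BM Gr-1hi, and 2.95 and 5.65 in BM Gr-1lo. The part of these cells in the higher levels of Scd1, Abca1, Abcg1, Nr1h3 and Fasn was not tested.

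**Figure D3:**
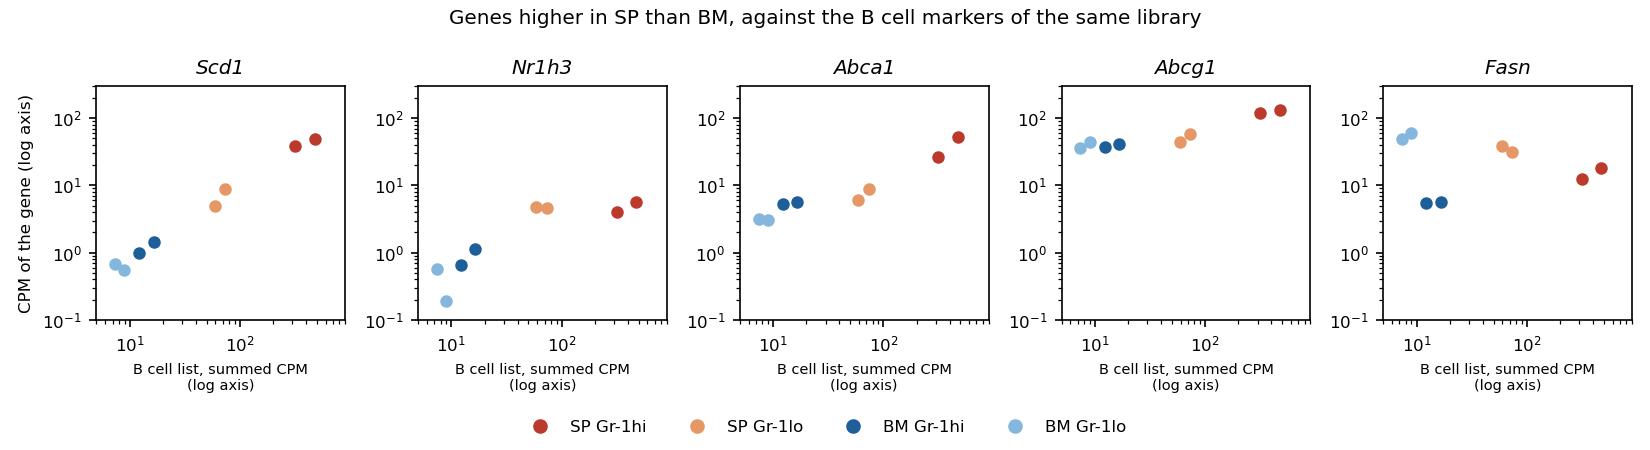
Level of 5 genes that were higher in SP than in BM Gr-1hi cells (CPM, log axis) against the summed level of 9 B cell markers in the same library (log axis), with 1 point for each of the 8 libraries, coloured by group. Scd1 is higher in groups with a higher B cell sum, while Fasn is highest in the BM Gr-1lo libraries, where that sum is lowest.

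Granule genes were also lower in SP Gr-1hi libraries. The 6 secondary granule genes led by Ngp, Ltf and Lcn2 summed to 32743 and 58732 CPM in SP Gr-1hi, 10576 and 9389 in SP Gr-1lo, 72497 and 81749.8 in BM Gr-1hi, and 5869 and 5063 in BM Gr-1lo. None of these 6 genes reached an FC of 2 between SP and BM Gr-1hi, 4 passed the adjusted p, and their median log2 FC was -0.80, against -1.14 for the 19 enzymes. Of 6 primary granule genes led by Mpo, Prtn3 and Elane, 3 were called lower. The 16 cell cycle genes had a median log2 FC of -0.38 in that comparison with 0 called. The part of the stage of the granulocytes in the lower sterol genes was not tested. Library 10 held more of 16 of the 19 enzymes than library 9, by a median of 1.30 times, and without library 10 the number of genes lower in SP Gr-1hi was 10 instead of 13. Without it, the log2 FC was -1.0 for Cyp51, -0.92 for Fdps and -0.83 for Lss, all short of an FC of 2. Lss was also short of it without library 6, at -0.86, and with upper-quartile scaling, at -0.96, as was Srebf2 with that scaling, at -0.99. Without libraries 5 and 7, Nsdhl had a log2 FC of -0.94, and Fdps had -1.51 with an adjusted p of 0.070 by the same edgeR test.

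**Figure D4:**
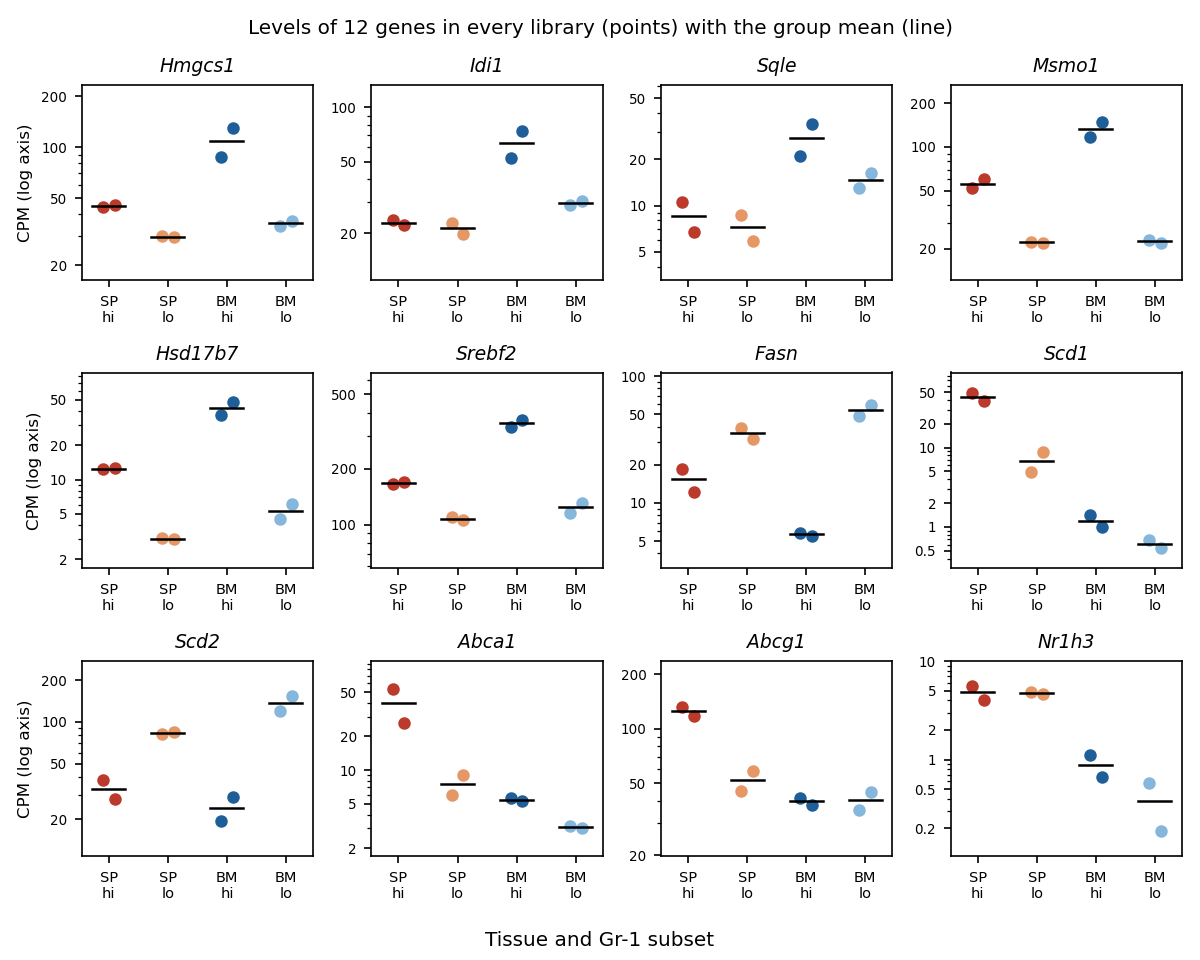
Level of 12 of the genes in CPM (log axis) in the 4 groups, with a point for each library and a line at the mean of the 2 libraries of a group. Hmgcs1, Idi1, Sqle, Msmo1, Hsd17b7 and Srebf2 peak in BM Gr-1hi, Fasn and Scd2 have their lowest mean there, and Scd1, Abca1 and Abcg1 peak in SP Gr-1hi.

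The same comparison was made in Gr-1lo cells. Scd1 and Nr1h3 were again higher in the spleen, and no gene was called lower. By the same edgeR rule 2 of the 37 genes were higher, where 3.84% of all genes were higher, and 0 were lower, where 0.215% of all genes were lower. By the adjusted p alone 2 genes were higher and 2 lower, where 4.88% and 0.697% of all genes were, and DESeq2 called 1 lower. The lower pair was Hsd17b7 and Elovl6. Scd1 had a log2 FC of 3.5 ± 0.33 (adjusted p = 0.000803) and Nr1h3 one of 3.64 ± 0.44 (adjusted p = 0.00214). Hsd17b7 had a log2 FC of -0.81 ± 0.18 (adjusted p = 0.0388), and Elovl6 one of -0.67 ± 0.13 (adjusted p = 0.0193). Of the 19 enzymes, 18 had a log2 FC below 0, where 51.7% of all genes did, and their median was -0.36. Both SP libraries lay below both BM libraries for 17 of the 19, where this held for 32.5% of all genes. None of these differences reached an FC of 2 except that of Sqle, at -1.02 ± 0.30 (adjusted p = 0.112). Abca1 had a log2 FC of 1.28 ± 0.34 (adjusted p = 0.0749) and Abcg1 one of 0.37 ± 0.15 (adjusted p = 0.227). Over all alternatives, the one without libraries 5 and 7 included, the log2 FC was no lower than 2.68 for Scd1 and 2.91 for Nr1h3. The same edgeR test on quantile-normalized TPM called 0 higher.

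The next comparisons asked how Gr-1hi cells differ from Gr-1lo cells within a tissue, first in the marrow. In BM Gr-1hi cells, 6 of the 19 enzymes of the mevalonate and sterol pathway were higher and 2 lower, and 4 of the 6 genes of fatty acid synthesis were lower and 0 higher. By the same rule 10 of the 37 genes were higher and 6 lower, where 24.2% of all genes were higher and 33.1% lower. The shares were thus 27% higher, near that of all genes, and 16.2% lower, which is below it. By the adjusted p alone 17 were higher (45.9%) and 10 lower (27%), where 34.5% and 41.2% of all genes were. Under limits of an FC over 8 and an adjusted p under 0.01 there were 0 higher and 2 lower, where 6.56% and 10.1% of all genes were. The higher genes were Hmgcs1, Idi1, Fdft1, Msmo1, Hsd17b7, Sc5d, Srebf2, Nr1h2, Nr1h3 and Mylip. Hsd17b7 and Msmo1 had the largest log2 FCs, 3.0 ± 0.18 (adjusted p = 1.03e-06) and 2.56 ± 0.13 (adjusted p = 5.34e-07). Hmgcs1 had 1.62 ± 0.17 (adjusted p = 2.91e-05), Fdft1 1.12 ± 0.16 (adjusted p = 0.000233), Idi1 1.1 ± 0.16 (adjusted p = 0.000225) and Srebf2 1.5 ± 0.09 (adjusted p = 1.21e-06). On the TPM scale all 10 higher genes differed less, with BM Gr-1hi at 1.16 (Idi1) to 4.34 (Hsd17b7) times BM Gr-1lo, against 2.15 to 8.0 times as CPM. Without library 10, the log2 FC was 0.91 for Fdft1 and 0.91 for Idi1, both short of an FC of 2. Sc5d, the desaturase of the sterol B ring, had 86.3 and 72.9 CPM in SP Gr-1hi, 22.2 and 18.6 in SP Gr-1lo, 69.7 and 76.9 in BM Gr-1hi, and 28.3 and 28 in BM Gr-1lo. The Gr-1hi libraries of both tissues lay above all Gr-1lo libraries, with a log2 FC of 1.38 ± 0.12 (adjusted p = 1.06e-05) in BM. Mylip had 71.1 and 70.6 CPM in SP Gr-1hi, 11.9 and 14.8 in SP Gr-1lo, 50.2 and 32.3 in BM Gr-1hi, and 10.00 and 12.3 in BM Gr-1lo. Its log2 FC in BM was 1.89 ± 0.21 (adjusted p = 4.91e-05), and the SP Gr-1hi libraries were the highest of all. Nr1h2 had 127 and 176 CPM in SP Gr-1hi, 85.8 and 84.5 in SP Gr-1lo, 178 and 192 in BM Gr-1hi, and 76.7 and 81.3 in BM Gr-1lo, with a log2 FC of 1.23 ± 0.14 (adjusted p = 5.68e-05). On quantile-normalized TPM by the edgeR test, Nr1h2 had 0.84 and Idi1 0.97, also short of an FC of 2. Nr1h3 had a log2 FC of 1.25 ± 0.51 (adjusted p = 0.04999), which rests on 10 to 30 counts per BM library, with 0.62 without library 12 and 0.86 without library 9.

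Fatty acid genes made up 4 of the 6 lower genes in BM Gr-1hi cells. Elovl6 had 1.27 and 1.31 CPM in SP Gr-1hi, 12.7 and 12.2 in SP Gr-1lo, 1.64 and 1.28 in BM Gr-1hi, and 20.3 and 19.5 in BM Gr-1lo. The Gr-1hi libraries of both tissues lay far below the Gr-1lo libraries, and the log2 FC in BM was -3.76 ± 0.16 (adjusted p = 2.39e-07). Fasn had a log2 FC of -3.25 ± 0.22 (adjusted p = 2.23e-06). Scd2 had 38.3 and 27.9 CPM in SP Gr-1hi, 82.1 and 85.2 in SP Gr-1lo, 19.5 and 28.7 in BM Gr-1hi, and 119.9 and 154 in BM Gr-1lo. It was the more abundant desaturase in every group but SP Gr-1hi, where Scd1 had 18.1 and Scd2 12.3 mean TPM on a scale that corrects for length, and its log2 FC in BM was -2.51 ± 0.22 (adjusted p = 1.41e-05). Acaca had 14.7 and 16.8 CPM in SP Gr-1hi, 44.7 and 43.5 in SP Gr-1lo, 19.9 and 26.2 in BM Gr-1hi, and 46.8 and 49.5 in BM Gr-1lo. Its log2 FC of -1.06 ± 0.14 (adjusted p = 9.86e-05) was at -0.82 without library 9 and at -0.92 with RLE scaling, so that its call turned on those choices. Of the 101-base windows of Acaca, 23.6% also occur in Gm42553 or Gm5182, so its counts are less certain. Acat2 had a log2 FC of -2.09 ± 0.19 (adjusted p = 1.12e-05). Dhcr7, a late reductase of the pathway, had 3.98 and 3.29 CPM in SP Gr-1hi, 9.62 and 9.65 in SP Gr-1lo, 5.31 and 4.95 in BM Gr-1hi, and 13.3 and 15.6 in BM Gr-1lo, with a log2 FC of -1.5 ± 0.15 (adjusted p = 2.63e-05). Without libraries 5 and 7, 9 genes were higher and 7 lower in BM.

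Within the spleen, the same fatty acid genes were lower in Gr-1hi cells, and fewer sterol enzymes were higher. Of the 37 genes, 7 were higher and 5 lower by the edgeR rule, where 22.3% of all genes were higher and 27.4% lower. By the adjusted p alone 12 were higher and 14 lower, against 33.6% and 37.8% of all genes. Under the limits of FC over 8 there were 0 higher and 1 lower, against 4.44% and 2.93%. Msmo1, Hsd17b7 and Sc5d were the only sterol enzymes called higher, with log2 FCs of 1.33 ± 0.13 (adjusted p = 2.52e-05), 2.04 ± 0.18 (adjusted p = 1.52e-05) and 1.97 ± 0.13 (adjusted p = 2.84e-06). Scd1 had a log2 FC of 2.66 ± 0.26 (adjusted p = 3.21e-05), Abca1 2.4 ± 0.32 (adjusted p = 0.000227) and Abcg1 1.27 ± 0.15 (adjusted p = 9.58e-05). Mylip had 2.4 ± 0.21 (adjusted p = 1.60e-05). The lower genes were Elovl6 at -3.28 ± 0.16 (adjusted p = 8.90e-07), Acaca at -1.49 ± 0.14 (adjusted p = 1.79e-05), Dhcr7 at -1.41 ± 0.16 (adjusted p = 5.52e-05), Scd2 at -1.34 ± 0.21 (adjusted p = 0.000621) and Fasn at -1.21 ± 0.20 (adjusted p = 0.000615). Without library 5 the number lower was 8 instead of 5, and without library 6 Fasn had a log2 FC of -0.97. When libraries 5 and 7 were left out, Abcg1 had a log2 FC of 0.99, short of an FC of 2. The edgeR test on quantile-normalized TPM called 2 lower.

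**Figure D5:**
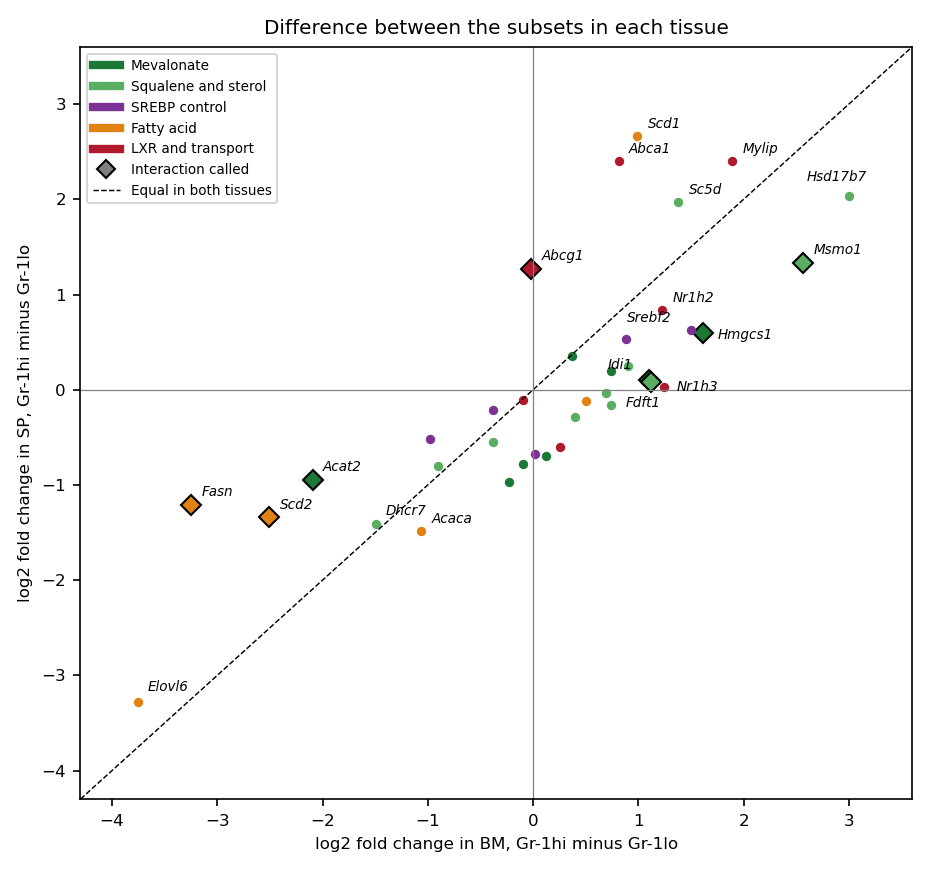
Log2 FC between Gr-1hi and Gr-1lo cells in BM (x axis) and in SP (y axis) for each of the 37 genes, coloured by role, with names for genes called in either tissue or in the interaction and a dashed line where both tissues would be equal. Hmgcs1, Idi1, Fdft1 and Msmo1 lie below the dashed line and Fasn, Scd2, Acat2 and Abcg1 above it, and these 8 genes (diamonds) passed the test of the interaction.

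Whether the tissues differed in the contrast between subsets was tested directly by the interaction, the log2 FC between Gr-1hi and Gr-1lo in SP minus that in BM. It was below 0 for Msmo1, Fdft1, Hmgcs1 and Idi1, at -1.23 ± 0.18 (adjusted p = 0.00518), -1.04 ± 0.23 (adjusted p = 0.0204), -1.02 ± 0.23 (adjusted p = 0.0232) and -1.0 ± 0.23 (adjusted p = 0.0219) by edgeR's quasi-likelihood test. In these 4 genes the log2 FC between subsets was larger in BM than in SP. It was above 0 for Fasn, Abcg1, Scd2 and Acat2, at 2.04 ± 0.29 (adjusted p = 0.00481), 1.29 ± 0.22 (adjusted p = 0.00846), 1.17 ± 0.30 (adjusted p = 0.0361) and 1.15 ± 0.26 (adjusted p = 0.0218). For Fasn, Scd2 and Acat2 the log2 FC between subsets was less negative in SP than in BM, and Abcg1 was higher in Gr-1hi cells of SP at a log2 FC of 1.27 and had -0.02 in BM. Over all genes tested, 2% had a called interaction below 0 and 7.74% one above 0. By the adjusted p alone 9 of the 37 lay below 0 and 4 above, against 6.08% and 10.3% of all genes. Srebf2 passed the adjusted p and not the FC, at -0.87 ± 0.13 (adjusted p = 0.00518). For Scd1 and Abca1 the interaction was 1.67 ± 0.49 (adjusted p = 0.0527) and 1.59 ± 0.47 (adjusted p = 0.0567). The number below 0 ranged from 1 to 12 as single libraries were left out, with 1 without library 7, 10 or 11, 2 without library 12, 8 without library 5 and 12 without library 9. The number above 0 was 2 without library 5, 7, 9 or 12, and without libraries 5 and 7 together there were 1 below and 2 above. On quantile-normalized TPM, the edgeR test called no interaction among the 37 genes.

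A further list of 41 genes of lipid metabolism was examined beside the 37, and 37 of the 41 were tested. Between SP and BM Gr-1hi cells 5 were higher (13.5%) and 3 lower (8.11%) by the same rule, where 14% and 1.48% of all genes were, with a median log2 FC of -0.15. Soat2, a second enzyme that esterifies cholesterol, was higher in SP Gr-1hi at 1.69 ± 0.30 (adjusted p = 0.00517), with a mean of 126 CPM against 39.2. In Gr-1lo cells 1 gene was called, Pltp, which transfers phospholipids between lipoproteins, higher in SP at 1.59 ± 0.20 (adjusted p = 0.00266). Between subsets the list split in both directions, with 10 higher (27%) and 14 lower (37.8%) in BM Gr-1hi than in BM Gr-1lo, and 8 higher (21.6%) and 11 lower (29.7%) in SP. These shares are near those of all genes, which were 24.2% and 33.1% in BM and 22.3% and 27.4% in SP. Dgat1, which makes the last bond of triglycerides, had a mean of 740.1 CPM in BM Gr-1hi and 29.7 in BM Gr-1lo, a log2 FC of 4.64 ± 0.11 (adjusted p = 4.67e-08). In SP its log2 FC was 3.6 ± 0.10 (adjusted p = 1.71e-07), and its interaction was -1.04 ± 0.13 (adjusted p = 0.00362). Dgat2, which catalyses the same step, had 2.79 ± 0.26 (adjusted p = 1.89e-05) in BM and 1.65 ± 0.25 (adjusted p = 0.000433) in SP. Aacs, which activates acetoacetate for lipid synthesis, had 2.23 ± 0.12 (adjusted p = 5.94e-07) and 1.83 ± 0.12 (adjusted p = 2.96e-06), and Gramd1b, a carrier of sterol from the plasma membrane, had 2.33 ± 0.11 (adjusted p = 3.41e-07) in BM. Among the lower genes, Cyp27a1, the sterol 27-hydroxylase, had -4.6 ± 0.36 (adjusted p = 8.02e-06) in BM and -3.55 ± 0.32 (adjusted p = 2.68e-05) in SP. Fads1, a desaturase of polyunsaturated fatty acids, had -3.45 ± 0.21 (adjusted p = 1.05e-06) and -2.45 ± 0.19 (adjusted p = 7.99e-06), and Npc2, the lysosomal carrier of cholesterol, had -2.13 ± 0.10 (adjusted p = 3.29e-07) and -2.06 ± 0.10 (adjusted p = 8.65e-07). Tmem97 had -3.11 ± 0.27 (adjusted p = 9.45e-06) in BM, and Elovl5, an elongase of polyunsaturated fatty acids, had -1.63 ± 0.14 (adjusted p = 1.13e-05) in SP.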

How the data were processed

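The authors sequenced stranded polyA libraries as 101-base pairs, aligned the reads with STAR to GRCm38 and counted them per GENCODE gene with featureCounts. The deposited values are whole-number counts per gene, with 2 libraries in each of 4 groups, said to be independent biological replicates. With edgeR 4.0.16 in R 4.3.3, filterByExpr kept 17650 genes, TMM set the scale, and a quasi-likelihood model with 1 term per group (4 residual degrees of freedom) gave 5 comparisons, adjusted by Benjamini-Hochberg over all genes. Calls needed an adjusted p within 0.05 and an FC no smaller than 2. Coordinates and lengths are those of GENCODE M21 on GRCm38, and TPM are counts per length. Values are given in every library for the 26 genes called in a comparison and for the named SREBP and LXR genes, and up to 4 further genes per direction at 10 CPM or more. Some genes of the further list and of the marker lists are not reported here. The members and lists were chosen with earlier results of these data known. Alternatives were RLE and upper-quartile scaling, no filter, DESeq2 1.42.0, a fit of the 4 libraries compared, other thresholds and left-out libraries. A further alternative ran the edgeR test on TPM that were quantile-normalized with limma 3.58.1. The scripts were tested on simulated counts.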

Additional observations from a re-analysis of the deposited data

Results flagged for a closer look

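The difference between tissues in the contrast of Gr-1hi with Gr-1lo cells passed the test of the interaction for 8 of the 37 genes, in edgeR's quasi-likelihood model, adjusted by Benjamini-Hochberg. Of all genes tested, 2% passed below 0 and 7.74% above 0. The number below 0 among the 37 depended on which library was left out, as given above. The interaction, in log2 units, was -1.23 for Msmo1 (adjusted p = 0.00518), -1.04 for Fdft1 (adjusted p = 0.0204), -1.02 for Hmgcs1 (adjusted p = 0.0232) and -1.0 for Idi1 (adjusted p = 0.0219), all of them enzymes of cholesterol synthesis with a smaller difference between subsets in SP than in BM. It was 2.04 for Fasn (adjusted p = 0.00481), 1.29 for Abcg1 (adjusted p = 0.00846), 1.17 for Scd2 (adjusted p = 0.0361) and 1.15 for Acat2 (adjusted p = 0.0218). Without libraries 5 and 7, the values were 1.01 for Acat2 (adjusted p = 0.096), -0.93 for Fdft1 (adjusted p = 0.125), -0.97 for Hmgcs1 (adjusted p = 0.162), -0.91 for Idi1 (adjusted p = 0.12) and 0.93 for Scd2 (adjusted p = 0.23), so that these 5 were no longer called.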

How the results depend on the processing

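Alternatives were run for the called differences of the 37 genes, and of these 832 values 0 reversed and 83 lost their call. No paired analysis was possible because the library numbers are not shared between groups and no label says which marrow and spleen libraries, described as autologous, share a mouse. Quantile-normalized TPM under the same edgeR test gave fewer calls in 6 counts. There were 3 higher and 6 lower between SP and BM Gr-1hi, and 0 higher between SP and BM Gr-1lo. Between SP Gr-1hi and SP Gr-1lo 2 were lower, and the interaction had 0 higher and 0 lower. By the adjusted p alone there were 20 lower between SP and BM Gr-1hi, 2 lower between SP and BM Gr-1lo, 17 higher and 10 lower between subsets in BM, 12 higher and 14 lower between subsets in SP, and 9 below 0 in the interaction. The study's stricter limits for subsets (FC over 8, adjusted p under 0.01) left 0 higher and 2 lower in BM and 0 higher and 1 lower in SP. DESeq2 gave 1 lower between SP and BM Gr-1lo, and upper-quartile scaling 2 below 0 in the interaction. Without libraries 5 and 7 the interaction counted 2 above and 1 below 0. With 1 library left out, where the lone library of a group is assumed to vary like the others, the range was 10 to 15 lower between SP and BM Gr-1hi, 2 to 3 higher between SP and BM Gr-1lo, 9 to 10 higher and 5 to 8 lower between subsets in BM, 7 to 8 higher and 4 to 8 lower between subsets in SP, and 2 to 5 above and 1 to 12 below 0 in the interaction. The median log2 FC of all genes between BM Gr-1hi and BM Gr-1lo was -0.18 with TMM and -0.03 with RLE. Nr1h3 rested on 10 to 30 counts per BM library. The causes were not tested.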

Other observations

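The 2 BM Gr-1hi libraries differed from each other along the sterol genes. Library 10 lay above library 9 for 8 of the 8 mevalonate genes, by a median of 1.36 times, and for 8 of the 11 sterol genes, by 1.29 times. The sum of 8 monocyte genes led by Ly6c2, Fn1 and Ccr2 was 1764 CPM in library 10 against 1330 in library 9. Within it, Ly6c2 had 1516 CPM against 1133, Fn1 31.2 against 1.12 and Ccr2 38.6 against 6.73. Csf1r, on the same list, went the other way, with 133 CPM in library 10 and 175 in library 9. The part of monocytes in the difference between these libraries was not tested. In BM Gr-1lo, library 12 lay above library 11 for 16 of the 19 enzymes, by 1.12 times.

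Per length, Acly and Nr1h2 were among the most abundant of the 37 genes. Acly had a mean of 74 TPM in SP Gr-1hi, 119 in SP Gr-1lo, 100.2 in BM Gr-1hi and 131 in BM Gr-1lo. Nr1h2 had 90.4, 74.9, 92.3 and 72.5 TPM in the same order. Nr1h3, the other LXR gene, had 3.88, 5.56, 0.597 and 0.469 TPM, so Nr1h2 was the more abundant LXR gene in every group.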
